A study of Mus musculus with 12 samples.

Results

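The genes described here are 30 genes of red cell precursors and of heme synthesis, read in mouse spleen with and without lipopolysaccharide (LPS) in Dusp1 wild-type and Dusp1 knockout mice. They were chosen by gene symbol, as genes of the heme pathway, of erythroid transcription and of the red cell membrane and cytosol. A gene was read through 1 probe set, the brightest that names it alone, with sets ending in _x_at used only where there was no other. In this way 28 of the 30 were measured, among 12393 genes on the array, and Ahsp and Epb41 had no probe set under their names and were not analysed here. Each of the 12 arrays held spleen RNA of 1 mouse, in 4 groups of 3: DUSP1+/+ mice without treatment, DUSP1+/+ mice killed 6 h after an intraperitoneal dose of E. coli LPS of 10 µg per g of body weight, and DUSP1-/- mice in the same 2 states. Below, an array is named by its genotype (wild-type or knockout), its treatment and the number its label carries. Strain, age, sex and the way the knockout was made are not given in the sources used here, and the controls were labelled untreated, with no mention of a mock injection. Values are intensities on a linear scale, and a difference is on the log2 scale, with limma's standard error (SE) after ±.

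The mouse spleen makes red cells beside the bone marrow throughout life, in its red pulp, and it enlarges this production under stress. Erythroblasts switch on the factors Gata1, Tal1 and Klf1, respond to erythropoietin through its receptor Epor, and then fill with hemoglobin while they build the membrane skeleton of the red cell. Heme is built in a chain of enzymes that begins with Alas2 in erythroid mitochondria and ends when Fech inserts iron, which reaches the mitochondrion through the carrier Slc25a37. Dusp1 is a phosphatase that switches off MAP kinases, and the series asks how it controls the response to LPS.

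Facts of the whole series that touch these genes were as follows. Spleen markers were present on every array, with the B cell gene Cd79a from 730 to 4499, the T cell gene Cd3e from 142 to 591 and the myeloid gene Lyz2 from 3635 to 6770. Pancreas transcripts were high on wild-type control 1, knockout control 1 and knockout control 3, where the trypsinogen gene Prss2 read 8116, 3981 and 503, against 25 to 53 on the other 9 arrays. The lung gene Sftpc read 966 and 895 on knockout controls 2 and 3. It read 735 and 311 on knockout LPS 1 and 3, and 15 to 94 elsewhere. Averaged over treatments, 8 of 8 lung genes had a higher mean in knockout mice. The liver gene Alb ran from 26 to 5986, with its peak on knockout control 2. The part of these tissues in genotype differences was not tested. Xist, made by female cells, read 35 and 47 on wild-type controls 2 and 3 and 1101 to 3949 elsewhere, so the wild-type controls were mixed in this respect. The Y-linked gene Eif2s3y read 316 and 53 on those 2 arrays and 7 to 10 elsewhere. Wild-type control 2 was also the second highest array for 27 of the 28 measured members. Dusp1 itself read 479 to 1354 in wild-type controls, 677 to 1528 in knockout controls, 2116 to 2248 in wild-type LPS and 2948 to 4996 in knockout LPS arrays. It was therefore not lower on the arrays labelled knockout. The sources used here do not say whether its probe set falls inside the sequence that was altered, so this signal does not check the labels, on which every direction between genotypes rests.

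Start regions of 4 genes are shown, since the results below turn on them: Alas2 and Klf1 had the highest and the lowest share of their peak on the knockout LPS arrays, Hemgn had the widest range over the arrays, and Ppox alone passed the test. The sequences are those of RefSeq on GRCm38.p6, from 250 bases before the start of the gene to 50 after it, written 5′ to 3′ on the strand of the gene. Alas2 lies on the + strand at chrX:150547167-150547466, Klf1 on the + strand at chr8:84901732-84902031, Hemgn on the - strand at chr4:46404134-46404433 and Ppox on the - strand at chr1:171281137-171281436. Capitals mark hexamers read by GATA factors, which are AGATAA and TGATAA and, with another last letter, AGATAG and TGATAG, on either strand, counted whether or not they overlap another motif.

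Alas2: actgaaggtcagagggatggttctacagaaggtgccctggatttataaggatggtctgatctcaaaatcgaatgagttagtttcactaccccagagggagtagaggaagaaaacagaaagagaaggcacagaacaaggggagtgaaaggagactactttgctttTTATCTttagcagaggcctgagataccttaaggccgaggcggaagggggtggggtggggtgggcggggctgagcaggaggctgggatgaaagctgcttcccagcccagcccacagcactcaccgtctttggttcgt

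Klf1: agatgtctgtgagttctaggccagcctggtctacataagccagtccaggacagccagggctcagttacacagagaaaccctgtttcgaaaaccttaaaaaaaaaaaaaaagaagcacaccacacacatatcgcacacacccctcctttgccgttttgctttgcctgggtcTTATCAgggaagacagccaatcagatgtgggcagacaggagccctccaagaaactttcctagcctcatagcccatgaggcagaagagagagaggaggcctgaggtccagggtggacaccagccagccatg

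Hemgn: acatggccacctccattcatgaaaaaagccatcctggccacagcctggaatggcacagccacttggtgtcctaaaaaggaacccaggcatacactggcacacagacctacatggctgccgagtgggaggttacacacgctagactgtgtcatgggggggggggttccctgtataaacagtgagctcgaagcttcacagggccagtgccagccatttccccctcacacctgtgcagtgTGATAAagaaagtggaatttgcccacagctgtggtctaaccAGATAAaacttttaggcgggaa

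Ppox: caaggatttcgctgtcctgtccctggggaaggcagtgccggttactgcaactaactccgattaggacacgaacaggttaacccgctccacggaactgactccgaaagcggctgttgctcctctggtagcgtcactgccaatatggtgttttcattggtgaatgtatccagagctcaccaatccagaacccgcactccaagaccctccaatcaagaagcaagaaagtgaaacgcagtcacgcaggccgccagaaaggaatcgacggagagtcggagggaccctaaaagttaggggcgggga

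The Alas2 window held AGATAA on the reverse strand, from 86 bases before the start. The Klf1 window held TGATAA on the reverse strand, from 80 bases before the start. The Hemgn window held TGATAA from 13 bases before the start and AGATAA from base 29 of the transcript, and the Ppox window held none of these letters. Of the 21 measured members with an entry in the promoter table, 14 (66.7%) had such a hexamer in at least 1 listed start region, against 33.0% of all 27025 genes in the table. The motif CACCC, the core read by Klf1, was present on either strand for 16 of the 21 (76.2%), against 59.8% of all genes. TGAGTCA, the core read by Nfe2, was present for 2 (9.52%), against 5.95%. These are matches of letters in a window, and not measured binding.

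Almost all members shared their 2 highest arrays, and 1 array stood out. All 28 were highest on knockout control 1, and 27 of the 28 had their second highest value on wild-type control 2, the exception being Tspan33, a tetraspanin of the red cell lineage, which was second on wild-type LPS 2 through the probe set used but on wild-type control 2 through its 3 other sets. Over all 12393 genes, 9.27% were highest on knockout control 1, and for 4.16% these 2 arrays were the top pair. Averaged over the 28 genes, the log2 intensity was 10.72 on knockout control 1 and 9.38 on wild-type control 2, and from 6.15 to 7.97 on the other 10 arrays. The other knockout controls, 2 and 3, were among the lowest arrays, at 6.54 and 6.15, and knockout control 3 was the lowest of all 12 for 15 of the 28 genes. Both extremes of the data thus lay in the same group. In bulk tissue, more red cell precursors and more of these transcripts per cell cannot be told apart.

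**Figure D1:**
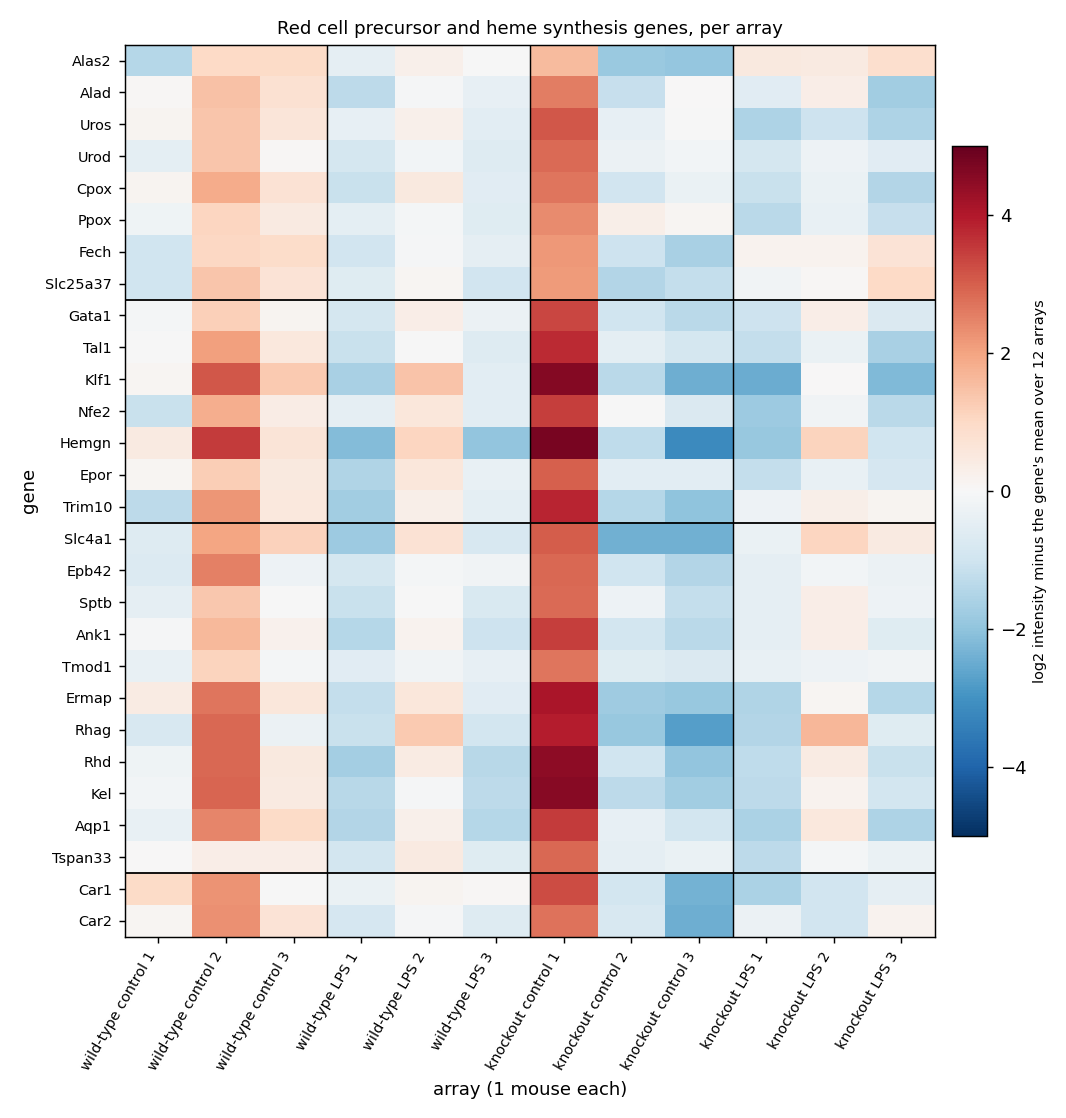
Log2 intensity of the 28 measured members (rows, grouped by role with lines between heme synthesis, transcription and signalling, membrane and skeleton, and cytosol) on the 12 arrays (columns), each minus the gene's mean over the arrays. Knockout control 1 is the reddest column for all 28 genes and wild-type control 2 the next for 27.

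The spread between mice of 1 group was far wider for these genes than for most. In knockout controls the SD of the log2 intensity was 2.40 at the median of the members and at most 4.14 (Hemgn), against a median of 0.36 over all genes, and 28 of 28 members lay above the 95th percentile of all genes (1.12). The same count was 18 of 28 in wild-type controls, 11 in wild-type LPS and 9 in knockout LPS arrays, where the median SD of the members was 1.15, 0.64 and 0.61. From the lowest to the highest array the members spanned from 10.4-fold (Tmod1, which caps actin filaments of the membrane skeleton) to 244.0-fold (Hemgn, a nuclear protein of erythroid progenitors). The wide span bounds what 3 mice per group can show: the SE of an LPS difference in 1 genotype ran from 0.55 (Ppox) to 1.80 (Hemgn).

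Transcripts of dividing cells had the same 2 highest arrays as the members. All 23 measured proliferation genes were highest on knockout control 1, and for 22 the top pair of arrays was again knockout control 1 and wild-type control 2. Their summed intensity was 32570 and 15684 on those arrays and 6019 to 9049 on the others. The division marker Mki67 read 2512 on knockout control 1 and 1129 on wild-type control 2, but also 1001 on wild-type control 1, which was not high in red cell genes. Neutrophil genes were high on the same arrays, with 10 of 15 having them as the top pair and sums of 13832 and 15971 against 4372 to 12172. T cell genes went the other way on knockout control 1, with a summed intensity of 2149 against 4194 to 7202 on the 10 arrays other than these 2 and 4597 on wild-type control 2. Platelet and megakaryocyte genes, a lineage that also uses Gata1, Tal1 and Nfe2, summed to 4883 and 4645 on these arrays against 2200 to 4328 elsewhere, and 1 of 11 had this top pair. Knockout control 1 also carried pancreas transcripts, but wild-type control 2 did not, and wild-type control 1, with the most pancreas signal of all, was not high in red cell genes (mean log2 intensity 7.21). The part of cell division, of neutrophils and of neighbouring tissue in the red cell values was not tested.

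**Figure D2:**
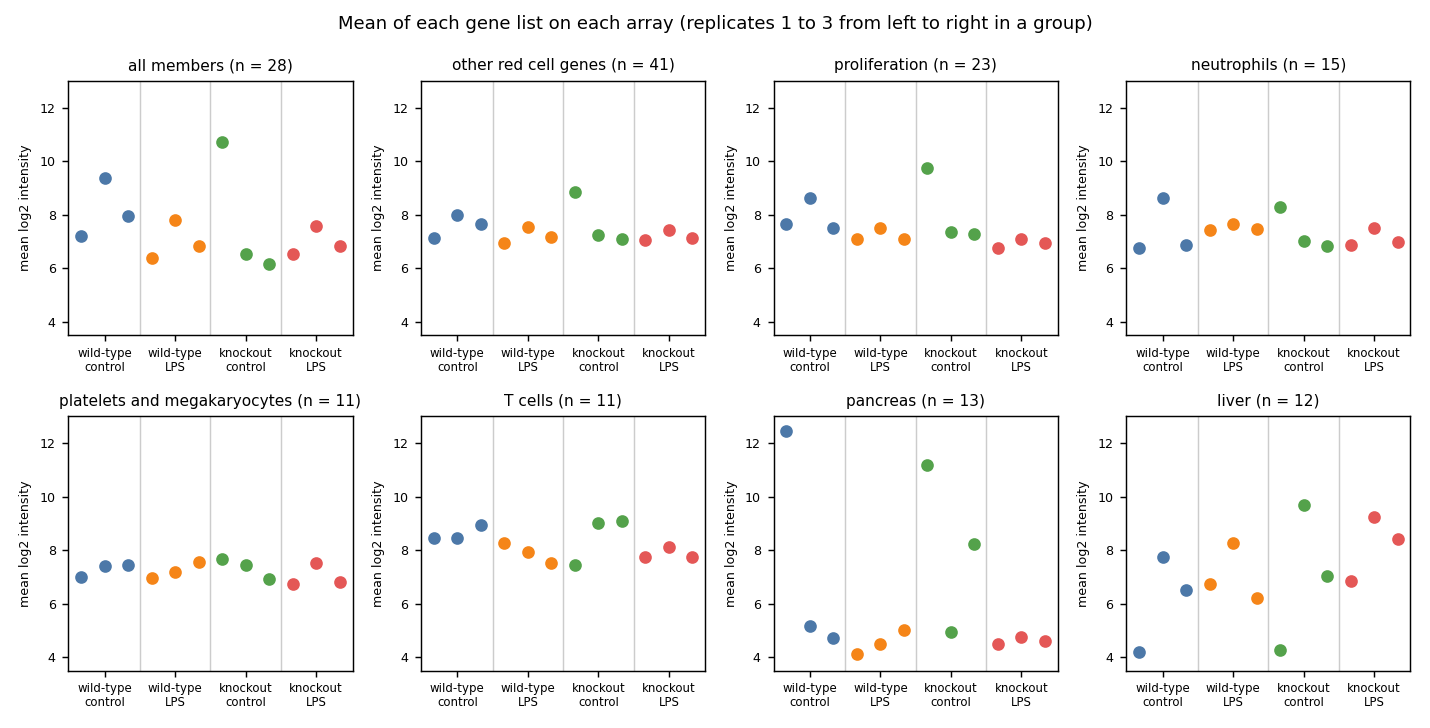
Mean log2 intensity of 8 gene lists on each array (points, coloured by group, 3 mice each). The members, the other red cell genes and the proliferation genes are highest on knockout control 1, while the pancreas list is highest on wild-type control 1 and the liver list on knockout control 2.

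After LPS, no member passed the test in wild-type spleen. All 28 had a mean below that of the controls, with a median log2 difference of -1.07 against -0.03 over all 12393 genes, but 0 of 28 passed at an adjusted p of 0.05 and 0 had an unadjusted p under 0.05. Of all genes 8.09% were called, 3.93% higher and 4.16% lower, and 21.4% had an unadjusted p under 0.05. Some lists of other cells were lower as well, with a median of -1.10 for B cells, -0.78 for T cells and for macrophages, -0.72 for stroma and endothelium, -0.69 for proliferation and -2.94 for pancreas. Others were not, with -0.04 for neutrophils, -0.01 for lung, 0.03 for platelets and megakaryocytes and 0.56 for liver. The part of these lists in the result was not tested. The smallest adjusted p was 0.446, for the water channel gene Aqp1 (-1.87 ± 1.13). Groups of 3 did not overlap for 2 members, Alad and Car2, both lower after LPS, against 14.8% of all genes lower and 10.2% higher without overlap. In knockout spleen 23 of 28 means were below those of the controls and 5 above, with a median of -1.04 against -0.06 over all genes, and 1 of 28 passed. Of all genes 15.2% were called, 5.54% higher and 9.71% lower. Uros and Ppox were lower without overlap and 0 members higher, against 17.6% and 11.3% of all genes. The other lists in knockout spleen had medians of -3.60 for pancreas, -1.32 for proliferation and -1.10 for stroma and endothelium. Those of T cells, B cells, neutrophils and macrophages were -0.71, -0.69, -0.49 and -0.44. Platelets and megakaryocytes were at -0.31, lung at -0.06 and liver at 1.17. Their part in the knockout result was not tested either. Averaged over both genotypes, 27 of 28 were below and 1 passed, again Ppox, against 22.9% of all genes (8.52% higher and 14.3% lower), and 4 were lower at an unadjusted p under 0.05 (Ppox, Uros, Cpox and Tal1), against 21.7% of all genes. The shares of members called were thus below those of all genes in each comparison.

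Among the enzymes of heme synthesis, Ppox, which makes protoporphyrin, was the only called gene. Wild-type controls gave 196, 470 and 305 for it and wild-type LPS arrays 160, 208 and 148. In knockout mice it read 1150, 276 and 241 in controls and 89, 174 and 102 after LPS. The knockout groups did not overlap, and the wild-type groups overlapped through 1 control. The fall in knockout spleen, between different mice, was -1.87 ± 0.55 (limma adjusted p = 0.0483). That averaged over genotypes was -1.35 ± 0.39 (adjusted p = 0.0313), and the wild-type difference of -0.84 ± 0.55 did not pass (adjusted p = 0.490). Over 25 alternatives the knockout value stayed below 0 and its adjusted p ran from 0.0157 to 0.167, with 7 calls. Without knockout control 1 it was -1.15 (adjusted p = 0.0763), and the call was likewise lost when wild-type control 2, wild-type control 3 or any single LPS array was removed (adjusted p from 0.0505 to 0.167). The other Ppox probe set, near background, did not show the fall in knockout spleen. It read 44, 26 and 18 in knockout controls and 23, 20 and 25 after LPS, and 22, 29 and 25, then 24, 24 and 33 in wild-type mice.

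Uros, which closes the ring of uroporphyrinogen, had a like course. Its values were 199, 476 and 273 in wild-type controls, 134, 213 and 124 in wild-type LPS, 1547, 136 and 177 in knockout controls and 62, 89 and 62 in knockout LPS arrays. The knockout LPS values lay below every other array. The difference in knockout spleen was -2.26 ± 0.75 (adjusted p = 0.0779) and the average -1.61 ± 0.53 (adjusted p = 0.0559), neither of which passed, and the average was called in 9 of 24 alternatives (adjusted p from 0.013 to 0.240). Urod, which acts on the product of Uros, read 152, 550 and 224, then 115, 193 and 135 in wild-type, and 1517, 175 and 195, then 117, 178 and 142 in knockout mice. Its groups overlapped in both genotypes (-0.88 ± 0.73 and -1.38 ± 0.73, neither called). Alad, the enzyme after Alas2, had 382, 998 and 624 in wild-type control spleen against 146, 351 and 278 after LPS, with no overlap but no call (-1.35 ± 0.84, adjusted p = 0.461). In knockout mice it read 2157, 165 and 366 in controls and 248, 461 and 110 after LPS, which overlapped. Cpox was dim, at 14 to 245, and under the 40th percentile of all probe sets (30.49) on 5 of 12 arrays.

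Alas2, Fech and Slc25a37 had means above those of the controls in knockout spleen, where the other 5 members of the heme group had lower ones, though only that of Ppox passed. In wild-type spleen the differences of Fech (-0.81 ± 0.86) and Slc25a37 (-0.87 ± 0.89) were close to those of Ppox and Urod. Alas2, the erythroid enzyme that starts the chain, read 847, 4537 and 4368 in wild-type controls, 1668, 2721 and 2241 in wild-type LPS, 6793, 626 and 596 in knockout controls and 3148, 3105 and 4010 in knockout LPS arrays. The knockout LPS values were close together and lay between knockout control 1 and the other 2 controls. Fech, which ends the chain, read 606, 2537 and 2300 in wild-type controls, 627, 1175 and 895 in wild-type LPS, 5459, 594 and 395 in knockout controls and 1398, 1374 and 1965 in knockout LPS arrays. The iron carrier Slc25a37 read 386, 2015 and 1234, then 497, 813 and 391 in wild-type, and 3358, 277 and 335, then 673, 797 and 1532 in knockout mice. With all 3 controls the knockout LPS differences were 1.32 ± 0.88, 0.52 ± 0.86 and 0.47 ± 0.89, and none passed (adjusted p from 0.412 to 0.820). Without knockout control 1, the highest array for each of these genes, they were necessarily larger, at 2.48, 1.68 and 1.62. That of Alas2 passed (adjusted p = 0.0244, against 0.0759 and 0.126). The Alas2 value then rests on 2 control mice, knockout controls 2 and 3. The first of these had the highest liver list (mean log2 intensity 9.70) and the other a high pancreas list (8.25). Both had a high lung list (7.55 and 7.27). The part of these tissues in the result was not tested.

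**Figure D3:**
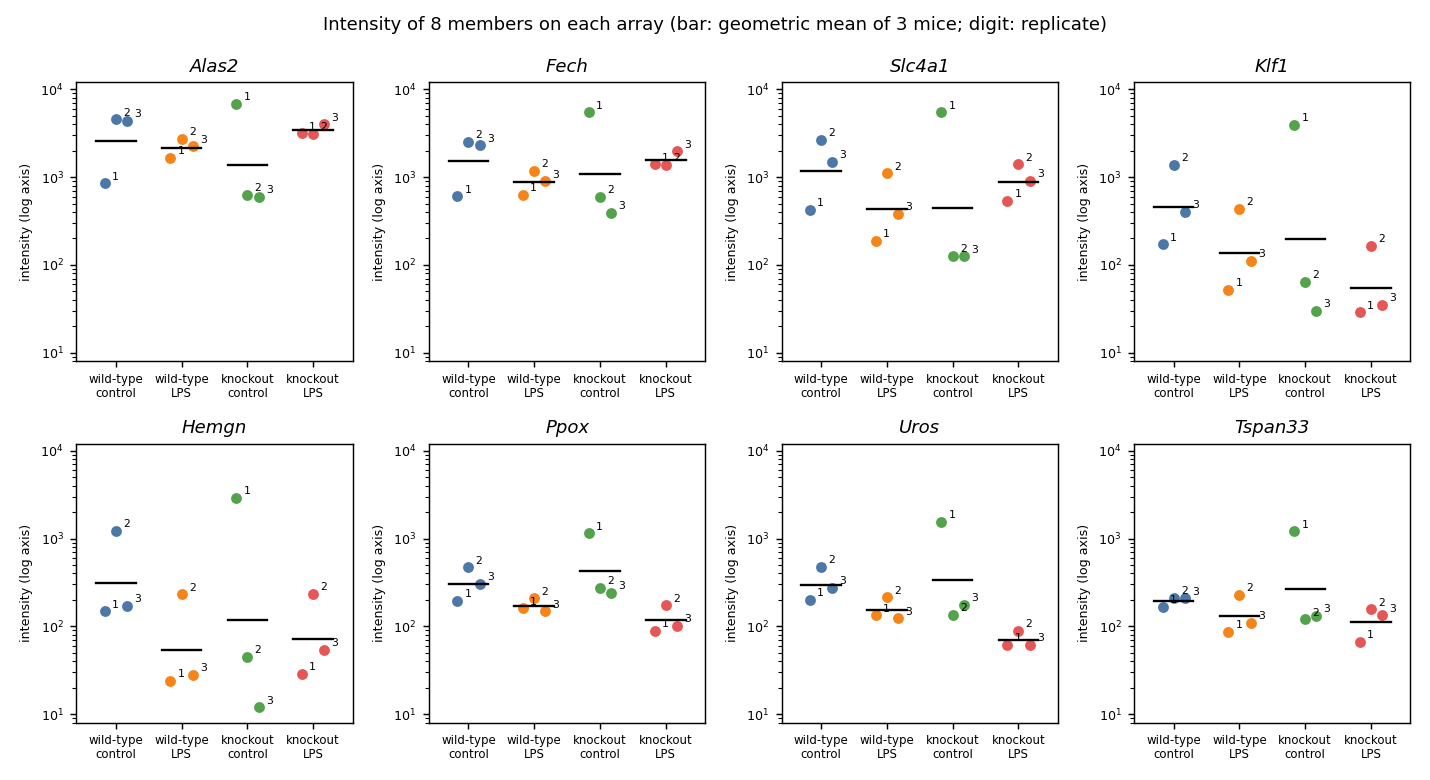
Intensity (log axis) of 8 members on each array, by group, with bars at the geometric mean of 3 mice and digits for the replicate. Knockout control 1 is the top point in every panel, and the knockout LPS points lie above knockout controls 2 and 3 for Alas2, Fech and Slc4a1 but below them for Ppox and Uros.

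The transcription factors and the receptor of erythroblasts were far below the value of knockout control 1 on the other arrays. Klf1, which activates adult globin and blood group genes, read 171, 1389 and 400 in wild-type controls, 52, 434 and 111 in wild-type LPS, 3923, 64 and 30 in knockout controls and 29, 165 and 35 in knockout LPS arrays. Hemgn read 148, 1233 and 170, then 24, 231 and 28 in wild-type, and 2928, 45 and 12, then 29, 236 and 54 in knockout mice. Klf1 and Hemgn were chosen for display after their values were seen. Replicate 2 was the highest within each LPS group for both. The mean log2 intensity of the 28 genes was 7.80 and 7.57 on wild-type and knockout LPS 2, and 6.41 to 6.83 on the other 4 LPS arrays.

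Trim10, a ring finger protein of terminal erythroid cells, read 77, 892 and 274, then 58, 232 and 138 in wild-type, and 2652, 72 and 47, then 159, 236 and 211 in knockout mice. Its knockout LPS values exceeded both knockout controls 2 and 3. Gata1 ranged from 33 to 855, Tal1 from 55 to 2235, Nfe2 from 34 to 1311 and Epor from 42 to 962, each with its peak on knockout control 1. None of these 7 genes passed in either genotype, with LPS differences from -2.55 ± 1.80 (Hemgn) to -0.49 ± 1.02 (Nfe2) in wild-type and from -2.03 ± 1.02 (Nfe2) to -0.06 ± 1.35 (Trim10) in knockout spleen.

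Of the genes for the red cell membrane, Slc4a1 encodes the anion exchanger band 3. Wild-type controls read 422, 2644 and 1493, followed by 188, 1107 and 381 in wild-type LPS, 127 and 125 in knockout controls 2 and 3 against 5446 in replicate 1, and 534, 1400 and 913 in knockout LPS arrays. Its LPS difference was -1.46 ± 1.32 in wild-type and 0.99 ± 1.32 in knockout spleen, the widest gap between genotypes among the members (2.46 ± 1.86), and it did not pass (adjusted p = 1.00). Aqp1 read 232, 1633 and 588, then 111, 361 and 114 in wild-type, and 3454, 231 and 161, then 102, 432 and 105 in knockout mice, so both genotypes overlapped. The blood group genes ran from 11 to 1128 (Rhag), 33 to 2872 (Rhd), 14 to 1083 (Kel) and 42 to 2686 (Ermap). The skeleton genes Ank1 (41 to 1212), Sptb (28 to 458), Epb42 (14 to 282) and Tmod1 (25 to 259) peaked on the same array. Kel, Hemgn, Epb42, Tmod1, Rhag, Klf1 and Sptb were each under 30.49 on 2 to 6 arrays, where a fold is limited by the background of the array. Tspan33, through the probe set used, read 67 to 227 on 11 arrays and 1210 on knockout control 1.

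Carbonic anhydrases hydrate carbon dioxide in the red cell cytosol. Car2 stood at 1118, 5106 and 1679 in wild-type control spleen and 589, 992 and 674 after LPS, with no overlap but no call (-1.54 ± 1.05, adjusted p = 0.516). In knockout mice it read 6901, 603 and 194 in controls and 854, 541 and 1185 after LPS, which overlapped. Car1 read 595, 1447 and 300, then 241, 337 and 319 in wild-type, and 2942, 161 and 60, then 101, 159 and 224 in knockout mice. Its wild-type groups overlapped through 1 control.

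Each gene was next set against its own highest array. These shares have a floor set by the background, which lies higher for a gene with a low peak: Tmod1 ran from 25 to 259 and Hemgn from 12 to 2928. On knockout LPS arrays Alas2 stood at 46.3%, 45.7% and 59.0% of its value on knockout control 1, Fech at 25.6%, 25.2% and 36.0%, and Slc25a37 at 20.04%, 23.7% and 45.6%. Klf1 stood at 0.739%, 4.21% and 0.892% on the same arrays and Hemgn at 0.990%, 8.06% and 1.84%, where the lowest share of each rests on a reading of 29, under 30.49. Averaged over the 3 arrays, Alas2, Fech and Slc25a37 were the only members above 20%, the median was 8.27%, and 18 of 28 were below 10%. On knockout controls 2 and 3 Ppox alone was above 20%, with a median of 5.81%, and Alas2 stood at 9.22% and 8.77%. So the knockout LPS arrays were well above these 2 controls for some members and below them for others. A gap between Alas2 and other members was also present on wild-type LPS arrays. Alas2 stood there at 24.55%, 40.06% and 32.99%, Klf1 at 1.33%, 11.06% and 2.83% and Hemgn at 0.820%, 7.89% and 0.956%. The Hemgn readings of 24 and 28 among these lie under 30.49. Averaged over the wild-type LPS arrays Alas2 alone was above 20%, with a median of 9.94%. Wild-type control 3 had a like split, with Alas2 at 64.3% and Fech at 42.1% but Hemgn at 5.81% and Rhag at 5.41%. This is a description of 1 array per mouse, with the order found after the values were seen.

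Leaving out knockout control 1 turned the direction of the list in knockout spleen. This array was singled out because all 28 members were highest on it, so every knockout LPS difference had to rise without it. The median LPS difference of the 28 members went from -1.04 to 0.67, and 18 were then higher and 10 lower after LPS, compared with 5 and 23 with all 12 arrays. Slc4a1 (2.80, adjusted p = 0.0519), Rhag (2.20, adjusted p = 0.294), Trim10 (1.78, adjusted p = 0.228) and Hemgn (1.63, adjusted p = 0.486) were positive beside Alas2 but did not pass. Uros (-1.15, adjusted p = 0.0722) and Nfe2 (-0.76, adjusted p = 0.606) remained negative with Ppox. Thus 13 of 28 members changed sign with 1 mouse, 5 stayed positive and 10 stayed negative, while in wild-type spleen the median stayed between -1.55 and -0.57 whichever array was left out.

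**Figure D4:**
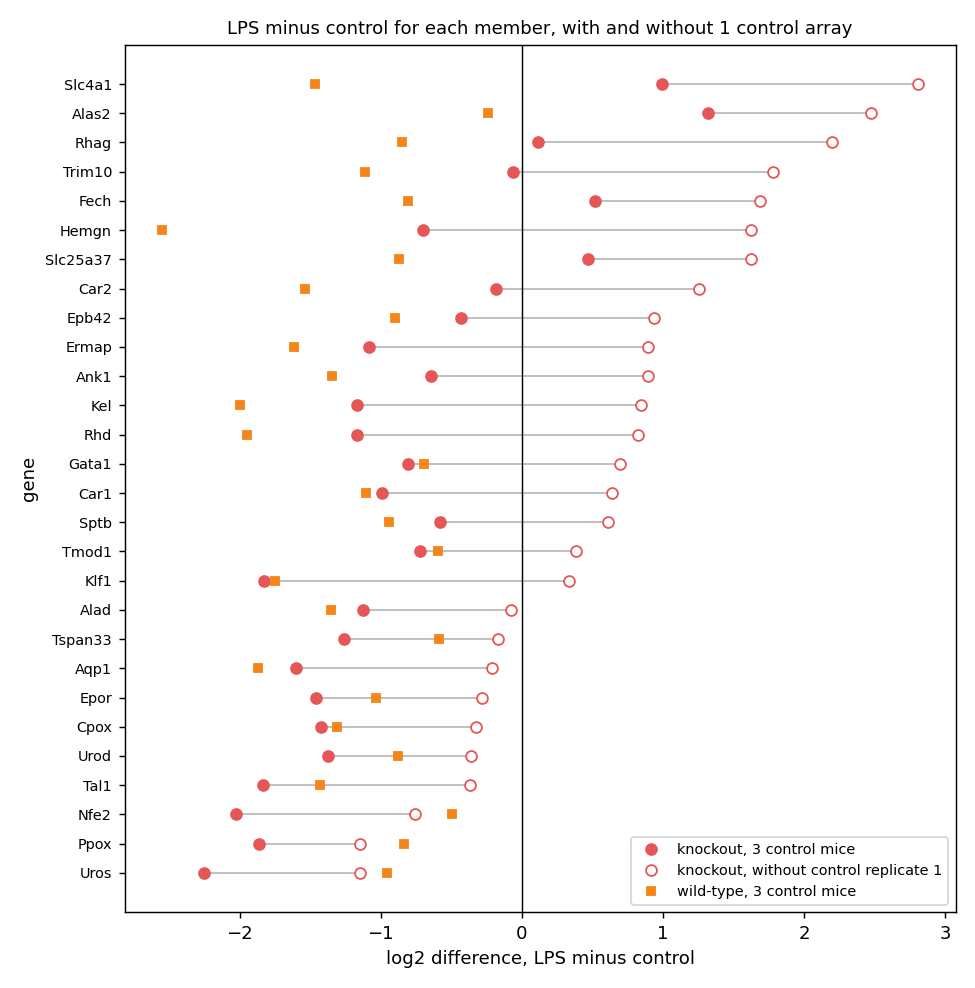
Log2 difference between LPS and control for each member in knockout spleen with 3 control mice (filled circles) and without knockout control 1 (open circles), and in wild-type spleen (squares). Removing this control array, on which every member was highest, necessarily moves every knockout point to the right. Then 18 of 28 lie above 0, while Ppox and Uros move to -1.15.

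Between genotypes no member passed. In controls 20 of 28 means were lower and 8 higher in knockout mice, with a median of -0.37 (0.07 over all genes), and 0 passed, where 0% of all genes were called. At an unadjusted p under 0.05 limma gave 0 members and 1.42% of all genes. No member was apart without overlap, against 1.53% of all genes higher and 0.952% lower. Knockout control 1 was the highest array for all 28 members, so every difference had to fall without it. All 28 were then lower in the remaining 2 knockout controls, with a median of -1.67 and 0 calls. That fit keeps wild-type control 2, the second highest array for 27 members. Without both arrays 26 were lower and 2 higher, with a median of -1.19. Both fits rest on knockout controls 2 and 3. Their mean log2 intensity was 9.70 and 7.05 for the liver list, 4.95 and 8.25 for pancreas and 7.55 and 7.27 for lung. The part of these tissues was not tested. After LPS 15 were higher and 13 lower in knockout mice, with a median of 0.04 (-0.57 with array quality weights), and 0 passed, where 0.363% of all genes were called (0.218% higher and 0.145% lower). Alas2 and Fech were higher in every knockout than in every wild-type LPS array (0.65 ± 0.88 and 0.84 ± 0.86, not called), where 8.73% of all genes were higher without overlap. Uros and Car1 were lower without overlap (-1.12 ± 0.75 and -0.95 ± 1.13, not called), where 9.60% of all genes were. These counts are near the share of all genes, and the difference between the LPS responses of the genotypes was called for 0 of 28 members and for 0% of all genes. Averaged over treatments, the genotype difference also gave 0 calls (median -0.16). At an unadjusted p under 0.05, limma also gave 0 members after LPS, in the average and in the difference of the responses, against 10.2%, 5.74% and 6.46% of all genes.

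Among 41 other measured red cell genes, 23 (56.1%) were also highest on knockout control 1. The transferrin receptor gene Tfrc, through which iron enters the erythroblast, read 2593 there and 1518 on wild-type control 2, against 111 to 612 elsewhere, and did not pass after LPS (-0.51 ± 1.00 and -0.58 ± 1.00). Bpgm, which makes the hemoglobin regulator bisphosphoglycerate and was singled out after its values were seen, read 2417, 290 and 291 in knockout controls and 1237, 948 and 1955 in knockout LPS arrays. The single probe set naming Hba-a1 alone read 9 to 12 on all arrays, at background, and sets shared by several globin genes were not used.

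In this list LPS called 1 rise and 2 falls in wild-type spleen, where 8.09% of all genes were called, and 3 rises and 6 falls in knockout spleen, where 15.2% were. The falls included Add1 (-1.48 ± 0.26, adjusted p = 0.00798, and -2.26 ± 0.26, adjusted p = 0.000478) and Add3 (-2.12 ± 0.42 and -3.33 ± 0.42), adducins of the membrane skeleton that many other cells express too. Also in knockout spleen fell the transcription partners Ldb1 (-1.88 ± 0.29), Lyl1 (-2.10 ± 0.28) and Cbfa2t3 (-1.13 ± 0.33) and the mitochondrial carrier Slc25a38 (-1.69 ± 0.44). In wild-type spleen each of these was lower too, without a call. Their geometric means went from 553.5 to 316.7 (Ldb1), 413.0 to 238.4 (Lyl1), 209.8 to 110.8 (Cbfa2t3) and 218.7 to 150.6 (Slc25a38). Mafk, a small partner of Nfe2, rose in both (0.99 ± 0.24 and 1.20 ± 0.24), and Cited2 (1.54 ± 0.34) and the glucose transporter gene Slc2a1 (1.41 ± 0.39) rose in knockout spleen. In wild-type spleen the geometric mean of Cited2 went from 458.6 to 634.2 and that of Slc2a1 from 461.5 to 546.6, neither called. Add1, Add3, Ldb1 and Lyl1 were not highest on knockout control 1, in contrast to the members.

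Some genes that move, sense or break down heme changed after LPS. Of 13 measured, 1 rose and 3 fell in wild-type spleen, where 3.93% of all genes rose and 4.16% fell. In knockout spleen 1 rose and 2 fell, against 5.54% and 9.71%. Tspo, a carrier protein of the outer mitochondrial membrane, rose from a geometric mean of 698 to 1796 in wild-type (1.36 ± 0.23, adjusted p = 0.0063) and by 1.06 ± 0.23 in knockout spleen. Cd163, the macrophage receptor for hemoglobin, fell in both (adjusted p = 0.0037 and 0.013), from 38 to 148 in controls to 11 to 20 on the 6 LPS arrays. Since these lie under 30.49, the size of its fall is limited by background. Hmox1, which opens the heme ring, fell in wild-type spleen (-1.29 ± 0.30, adjusted p = 0.0274) and was at -0.14 ± 0.30 in knockout spleen (adjusted p = 0.843), and the difference between these did not pass (1.15 ± 0.42, adjusted p = 0.797). Blvra, which reduces biliverdin, fell in knockout spleen (-0.97 ± 0.26) and Pgrmc1, a heme-binding protein, in wild-type spleen (-1.33 ± 0.28). Both were also lower in the other genotype, without a call. The geometric mean of Blvra went from 424.4 to 231.3 in wild-type and that of Pgrmc1 from 390.2 to 256.5 in knockout spleen. Alas1, the form of the first enzyme used outside the red cell lineage, was at 0.33 ± 0.35 and -0.17 ± 0.35 and was not called.

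Of 12 measured genes of iron supply and erythropoietin signalling, 0 rose and 1 fell in wild-type spleen (8.09% of all genes were called), and 1 rose and 2 fell in knockout spleen (15.2%). The iron exporter gene Slc40a1 fell in both (-6.37 ± 0.62, adjusted p = 0.000268, and -3.29 ± 0.62, adjusted p = 0.00643). It read 46, 25 and 24 on wild-type LPS arrays, and 2 of these lie under 30.49, so the size of the first value is limited by background. Aco1, an iron sensor that binds transcripts, fell in knockout spleen (-1.24 ± 0.24), where Stat5a, a factor downstream of the erythropoietin receptor, rose (1.34 ± 0.24). In wild-type spleen the geometric mean of Aco1 went from 181.7 to 115.0 and that of Stat5a from 239.6 to 425.7, neither called. No gene of these 3 further lists passed between genotypes or in the difference of the LPS responses.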

How the data were processed

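Per the labels, total spleen RNA was labelled with the Affymetrix One Cycle Kit and hybridized to MOE430A 2.0 arrays, 5 µg for each of 12 mice. Per the series' design text, the authors processed the arrays with RMA in the R affy package, whose version is not given in the sources used here. What was deposited is 1 linear intensity for each probe set, in whole numbers from 6 to 15228, with array medians from 47 to 63. Precision is limited by 3 arrays per group and, for dim probe sets, by background.

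The intensities were log2-transformed with no further scaling. Of 22690 probe sets 64 controls were left out. The platform table gave 1 gene for 20380 of the rest, several for 691 and none for 1555. A model with 4 group means was fitted to all 22626 probe sets with limma 3.58.1 in R 4.3.3 (8 residual and 2.722 prior degrees of freedom). Moderated tests were two-sided, with Benjamini-Hochberg adjustment over all probe sets per contrast and a threshold of 0.05. On simulated data with 50 changed probe sets per size, limma called 15 at a log2 difference of 1, 41 at 2 and 47 at 3. It also called 5 unchanged ones. The changed sets were drawn at random from all probe sets, so these counts do not hold for the members. The pooled SD within groups was 1.44 at the median of the members and 0.34 at that of all genes. Per the labels each array is 1 mouse. The members and gene lists were chosen with earlier results of these data known, so no count over a list is independent support. All members were named, with values per array for the 12 brightest and the called ones. Of the other lists, genes past the threshold were named, at most 8 per contrast, beside a fixed few. Figures were drawn with matplotlib.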

Additional observations from a re-analysis of the deposited data

How the results depend on the processing

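Ppox, the 1 member called in knockout spleen and in the average, stayed below 0 in all 49 alternative values of these comparisons. The count in knockout spleen went from 1 to 0 with arrays shifted to 1 median, quantile normalization, cyclic loess, log2(intensity + 16), a fit of only the groups compared, the mean of all probe sets of a gene, and the replicate block. It went to 2 with only probe sets above the 40th percentile and with array quality weights. The averaged LPS response went from 1 to 0 with arrays shifted to 1 median, cyclic loess and a term for the Xist pattern, and to 2 with the percentile filter, array quality weights, and eBayes with trend and robust. With the mean of all probe sets the 1 call there was Uros (adjusted p = 0.047). With array quality weights the median between LPS genotypes went from 0.04 to -0.57, and 10.3% of all genes were called there. The cause was not tested.

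Without wild-type control 2 and knockout control 1 together, 3 members were called in knockout spleen (Alas2 and Slc4a1 higher, Uros lower) with a median of 0.67, and 2 in the average. Without the 3 arrays high in pancreas transcripts, 1 knockout control was left, assumed to vary like the other groups, so only effect sizes are given. The wild-type controls left were 2 and 3, the arrays low in Xist. Differences from them cannot be told apart from the Xist pattern. In wild-type spleen the LPS difference was -1.04 for Alas2 and -1.47 for Fech. In knockout spleen it was 2.44 and 1.39, with a median of 0.39 over the members. Between control genotypes the median was -2.11, with Alas2 at -2.83. In the difference of responses the median was 2.21, with Alas2 at 3.48 and Fech at 2.86.

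Leaving out 1 array at a time gave 0 to 2 calls in knockout spleen and in the average and 0 in the other comparisons. The members' median then ran from -1.55 to -0.57 in wild-type spleen, -1.80 to 0.67 in knockout spleen, -1.43 to -0.37 in the average, -1.67 to 0.55 between control genotypes, -0.45 to 0.22 between LPS genotypes, -0.85 to 0.26 averaged over treatments and -0.48 to 1.79 in the difference of responses. The values at 0.67, -1.67 and 1.79 are those without knockout control 1.

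The labels give replicates 1 to 3 in every group. Deviations from group means correlated from -0.584 to 0.629 over the 18 pairs of arrays that share a number, and 6 were above 0.1. The highest was that of wild-type LPS 2 and knockout LPS 2. Whether arrays of the same number share more than the number was not tested. With the replicate block Ppox alone was called in the average (adjusted p = 0.046).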
